A study of Rattus norvegicus with 6 samples.

Results

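Gfap, Vim and Nes encode 3 intermediate filament proteins of glial and progenitor cells, and were followed here as 3 of the 34510 rows of a count table of rat median eminence RNA. They were chosen as rows ENSRNOG00000002919 (Gfap), ENSRNOG00000018087 (Vim) and ENSRNOG00000018681 (Nes), by a list of identifiers that sets no threshold on measured values. The names come from that definition, because the count table lists identifiers without symbols. All 3 rows had enough reads to be tested, as did 17125 rows in all. The median eminence is the floor of the hypothalamus where neurosecretory axons release hormones toward the pituitary, and it is lined by tanycytes. RNA was sequenced from 3 samples of S-D rats collected 1 day after an operation called PEL in the labels, and from 3 control samples of the same strain. The labels do not spell out PEL, nor do they say if controls were sham-operated, if animals were pooled, or the age of the animals. The series title places the samples in a study of structural repair and body fluid balance after hypothalamic injury, and the comparison of the 2 groups asks how expression differed 1 day after the surgery.

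Intermediate filaments are rope-like cytoskeletal polymers whose subunits differ between cell types. GFAP is the main filament protein of mature astrocytes, is also found in tanycytes, and is widely used as a marker of reactive gliosis. Vimentin is found in astrocytes, tanycytes and ependymal cells, and also in endothelial cells, fibroblasts and macrophages. Nestin marks neural progenitors, tanycytes and some reactive astrocytes, occurs in endothelial cells as well, and polymerises together with a partner such as vimentin. In bulk tissue, more cells of a type and more RNA per cell cannot be told apart. The tissue label was not checked against marker genes, because only identifiers are listed.

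The sequences upstream of the start sites of Gfap and Vim are shown because these are the members that passed the test described below. They were taken from RefSeq on the GRCr8 assembly and run 5′ to 3′ over the 250 bases before the annotated start. The Gfap sequence lies at chr10:88361662-88361911 on the minus strand and the Vim sequence at chr17:81577011-81577260 on the plus strand. Capitals mark matches to any of the searched motifs.
Gfap: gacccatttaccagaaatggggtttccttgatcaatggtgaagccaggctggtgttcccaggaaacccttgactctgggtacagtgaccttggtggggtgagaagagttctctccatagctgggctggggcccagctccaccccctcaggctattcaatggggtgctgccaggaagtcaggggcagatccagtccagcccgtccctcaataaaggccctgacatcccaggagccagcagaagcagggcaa
Vim: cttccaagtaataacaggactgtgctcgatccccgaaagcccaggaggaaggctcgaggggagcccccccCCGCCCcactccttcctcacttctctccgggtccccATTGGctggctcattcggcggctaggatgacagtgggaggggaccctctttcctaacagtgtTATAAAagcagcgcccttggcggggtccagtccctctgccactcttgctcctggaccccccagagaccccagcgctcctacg
The motif searched for STAT factors, which relay cytokine signals, was TTCNNNGAA, and for the injury-linked factor AP-1 it was TGANTCA. The other letters searched were those of common promoter elements: the TATA box, spelled TATAAA, the box named for its letters CCAAT, and the GC box, spelled GGGCGG. Each was searched on both strands, and no matches overlapped. The Vim window held a GC box beginning at position -180 and a CCAAT box at -144, both on the opposite strand to the gene, and a TATA box at -82 on its own strand. Positions count bases back from the start. Among windows of the same length in 33469 RefSeq promoters, 30.5% held a GC box, 34.0% a CCAAT box and 12.9% a TATA box. The STAT letters were in 7.67% and the AP-1 letters in 6.34% of all windows, and in neither of the printed ones. No searched letters were found in the Gfap window. Bases farther from the start were not searched, so sites there are not covered. The Nes window of the same table held 2 GC box matches, at -54 and -43, and none of the other searched letters. It is not printed because it lies inside the annotated span of the gene.

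Library totals ranged from 16055170 to 17144108 assigned reads after PEL and from 13756297 to 16746441 in controls. Levels are given as CPM, read counts scaled to library size with TMM, a correction for library composition. Rows counted as called had p under 0.05 in edgeR's quasi-likelihood test after Benjamini-Hochberg adjustment over all tested rows. By that rule 2 of the 3 members, Gfap and Vim, were higher after PEL, against a background of 4.44% of tested rows called higher, 0.993% called lower and 5.43% called in either direction. Nes missed the threshold. The members were chosen with earlier results of these data known, so their share called is a description and no test. All 3 members had PEL values that lay wholly above the control values, which was so for 17.2% of tested rows. The background count itself depended on which samples were used. The 760 rows called higher became 167, 166 and 209 without control replicates 1, 2 and 3. They became 232, 559 and 1468 without PEL replicates 1, 2 and 3. Each of these fits also had fewer samples to test with. PEL replicate 3 lay nearest to the controls, with a median change in log2(CPM + 1) of 0.69 over the 760 rows, against 0.93 in replicate 1 and 1.08 in replicate 2.

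Gfap rose about 8-fold and became one of the genes with the most reads in the tissue. Which cells the added reads came from was not tested. Its level was 6368, 6542 and 4521 CPM in PEL replicates 1, 2 and 3, against 691, 630 and 800 CPM in control replicates 1, 2 and 3. The groups were far apart: the lowest PEL library, replicate 3, held 5.65 times the level of the highest control library, also numbered 3. The group means were 5810 ± 1120 CPM after PEL and 707 ± 86.2 CPM in controls (SD, n = 3 each). On the log2 scale the fitted change was 3.04 ± 0.17 (SE; adjusted p = 0.000656, edgeR), which corresponds to 8.22-fold with a 95% interval of 6.25 to 10.8. Only 1 of the 17125 tested rows had a smaller p, and Gfap ranked 38 by fold change among the 760 rows called higher.

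The size of the Gfap change stood out against its abundance. The row took 0.576 ± 0.113% of all reads after PEL and 0.0712 ± 0.00892% in controls (SD, n = 3 each). Without correction for transcript length, it ranked 4, 2 and 6 by reads in PEL replicates 1, 2 and 3, against 126, 151 and 96 in control replicates 1, 2 and 3. In controls, 120 tested rows had at least as high a mean CPM as Gfap. None of these 120 had a larger log2 fold change, and 6 of them were called higher. Gfap was the row that gained the most CPM in the whole table, 5103 on average. That was 17.0% of the CPM gained by all 760 rows called higher, a set chosen on the same libraries.

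**Figure D1:**
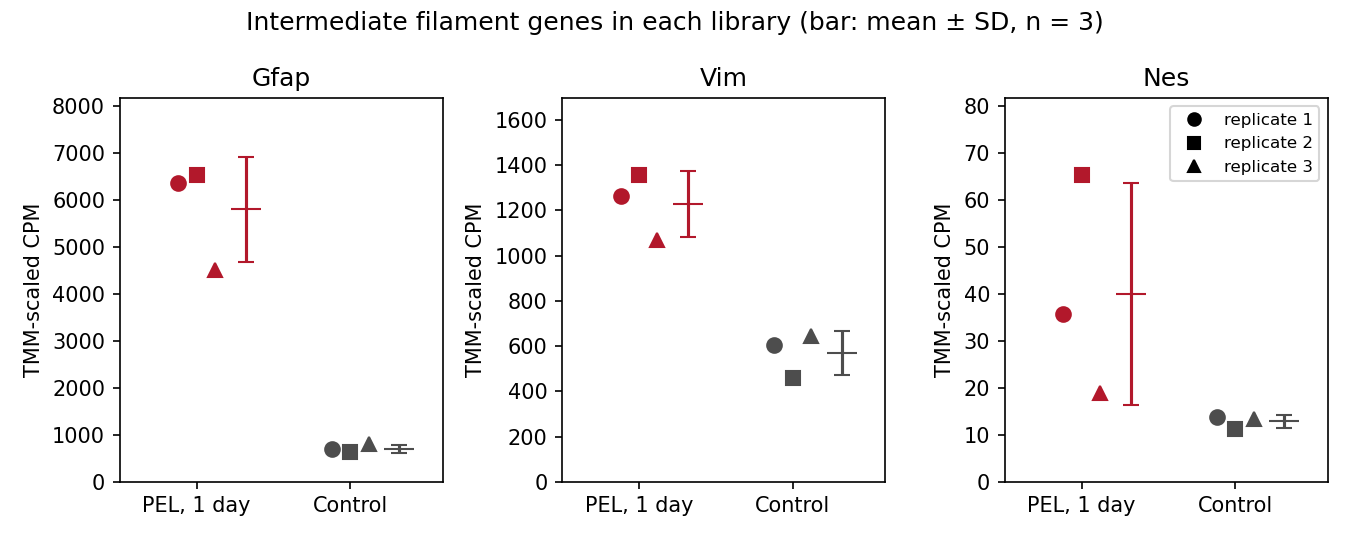
TMM-scaled CPM (vertical axes, each from 0) of Gfap, Vim and Nes in the 3 PEL and the 3 control libraries, with the marker shape giving the replicate number and the bar giving the mean ± SD. All 3 genes have every PEL value above every control value, with a wide gap for Gfap (4521 against 800 CPM between the nearest libraries) and a narrow one for Nes (18.9 against 13.9 CPM).

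Vim, the filament gene shared by astrocytes, tanycytes and several non-neural cell types, rose about 2-fold. Its level was 1262, 1358 and 1071 CPM in PEL replicates 1, 2 and 3, and 607, 458 and 646 CPM in control replicates 1, 2 and 3. No values overlapped, and the lowest PEL library held 1.66 times the level of the highest control library. The means were 1230 ± 146 CPM after PEL and 570 ± 99.0 CPM in controls (SD, n = 3 each). On the log2 scale the change was 1.11 ± 0.14 (SE; adjusted p = 0.00715, edgeR), or 2.16-fold with a 95% interval of 1.71 to 2.72.

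The Vim fold change was close to the median log2 fold change of 1.07 over all 760 rows called higher, but few genes as abundant changed as much. Of the 175 tested rows with at least the control level of Vim, 1 had a larger log2 fold change, and that row was Gfap, which has the higher control CPM. Among the same 175 rows, 10 were called higher, Gfap included. Vim gained 660 CPM on average and ranked 4 among all tested rows by that gain, and it held 2.20% of the CPM gained by the rows called higher. By reads it ranked 45, 27 and 64 in PEL replicates 1, 2 and 3, against 161, 252 and 144 in control replicates 1, 2 and 3.

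Nes, the progenitor-associated filament gene, had a higher mean after PEL but did not pass the test. Its level was 35.8, 65.4 and 18.9 CPM in PEL replicates 1, 2 and 3, against 13.9, 11.3 and 13.4 CPM in control replicates 1, 2 and 3. The PEL libraries differed widely among themselves, with replicate 2 at 3.47 times replicate 3, while the control libraries lay within 1.23 times of each other. PEL replicate 3 was only 1.36 times the highest control library. The means were 40.0 ± 23.5 CPM after PEL and 12.9 ± 1.40 CPM in controls (SD, n = 3 each). On the log2 scale the change was 1.64 ± 0.39 (SE; adjusted p = 0.0544, edgeR), or 3.11-fold with a 95% interval of 1.66 to 5.83 that is not adjusted for the number of rows. Of 10344 tested rows with at least the control level of Nes, 21 had a larger log2 fold change.

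The Nes call turned on PEL replicate 3, on the filter and on the tool. Without that library the log2 fold change was 1.98 (edgeR adjusted p = 0.00486), and without PEL replicate 2 it was 1.08 (edgeR adjusted p = 0.0661). Nes passed the threshold in the DESeq2 Wald test (adjusted p = 0.0200) and in edgeR with no filter on low counts (adjusted p = 0.0238), but not in limma-voom (adjusted p = 0.131). The row held 575, 1059 and 320 Nes reads in PEL replicates 1, 2 and 3, with 95% Poisson intervals of 529 to 624, 996 to 1125 and 286 to 357. Control replicates 1, 2 and 3 held 192, 181 and 227 Nes reads. As a share of the library, PEL replicate 3 had 0.00187% (exact Clopper-Pearson 95% interval 0.00167 to 0.00208), just above the 0.00140% of control replicate 1 (0.00121 to 0.00161). These intervals cover counting error only.

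**Figure D2:**
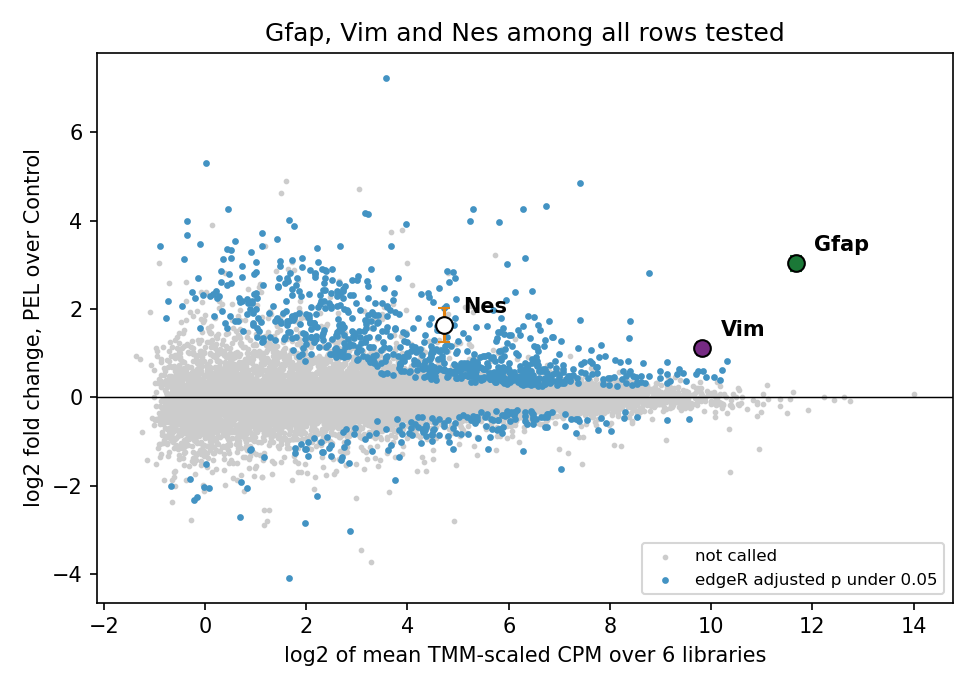
Log2 fold change of PEL over control (vertical axis) against the log2 of the mean TMM-scaled CPM over 6 libraries (horizontal axis) for 17125 tested rows, with rows called by edgeR in blue and the 3 filament genes as large symbols with SE bars, filled where called. Gfap (log2 fold change 3.04), Vim (1.11) and Nes (1.64, open symbol) all sit above most rows of like abundance, and Nes has the fewest reads per library, without correction for transcript length.

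An exact permutation test on the CPM of each member, two-sided, gave p = 0.1 for Gfap, for Vim and for Nes, which is the smallest p that 3 samples against 3 can give. The edgeR result draws on the spread of all tested rows.

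The 3 genes had the same order of PEL libraries, with replicate 2 highest and replicate 3 lowest, but not the same proportions. Measured as the gain over the control mean, Gfap gained 5661, 5835 and 3814 CPM in PEL replicates 1, 2 and 3. Relative to replicate 2, that was 97.0% in replicate 1 and 65.4% in replicate 3. Vim was close to this, with 87.8% in replicate 1 and 63.6% in replicate 3. Nes gained 23.0, 52.5 and 6.004 CPM, so its gain in replicate 1 was 43.7% and that in replicate 3 was 11.4% of the gain in replicate 2.

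Over the 760 rows called higher, the median gain was 78.6% of that in replicate 2 for replicate 1 (middle 50% of rows 61.6 to 104%) and 54.2% for replicate 3 (38.1 to 74.3%). Gfap and Vim lay within both ranges and Nes below both. A share in replicate 3 below that of Nes was seen in 7 of the 760 rows. The rows called higher were selected by a test that counts spread between libraries against a row, and Nes is not among them, so these shares are a description and no test. The order 2, 1, 3 was found in 60.3% of the rows called higher and in 20.7% of all tested rows. The spread of log2 CPM between PEL libraries was 0.90 for Nes (SD, n = 3), exceeded by 1.26% of the tested rows whose mean was 5 CPM or more. The same spread was 0.30 for Gfap and 0.17 for Vim, exceeded by 16.2% and 40.1% of these rows. Between control libraries it was 0.17 for Gfap, 0.26 for Vim and 0.16 for Nes.

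**Figure D3:**
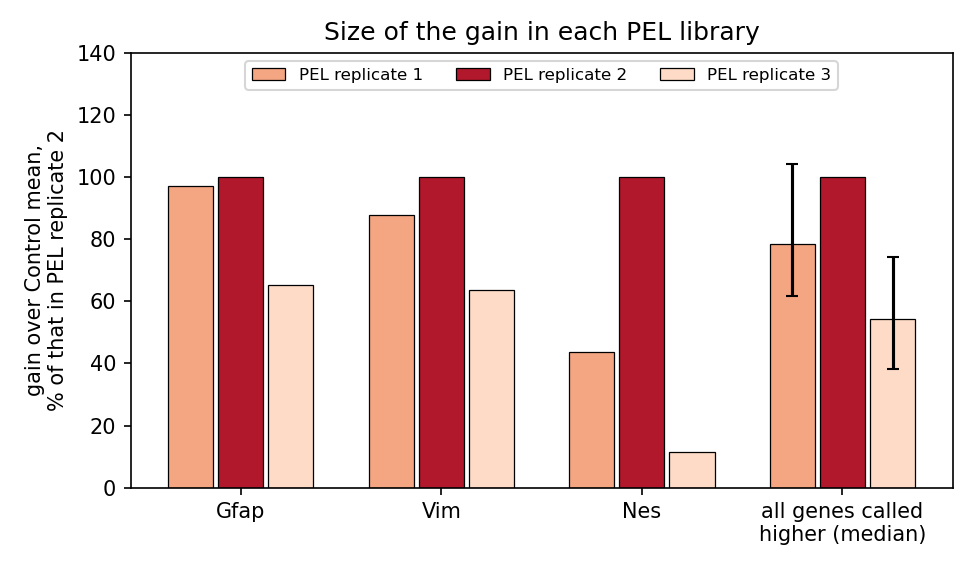
Gain over the control mean in each PEL library as a percentage of the gain in PEL replicate 2 (vertical axis, from 0), for Gfap, Vim, Nes and the median of the 760 rows called higher, whose error bars span the middle 50% of rows. Replicate 3 reaches 65.4% for Gfap and 63.6% for Vim but 11.4% for Nes.

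The ratio of 2 genes within a library needs no scaling between libraries, and its change shows whether the genes changed unequally. The ratios themselves also depend on transcript lengths, so only their differences between groups are read. Per Vim read there were 5.05, 4.82 and 4.22 Gfap reads in PEL replicates 1, 2 and 3, against 1.14, 1.38 and 1.24 in control replicates 1, 2 and 3. The groups were well apart, and the ratio varied little within either. The mean log2 ratio was 2.23 ± 0.13 after PEL and 0.32 ± 0.14 in controls (SD, n = 3 each), a difference of 1.91, or a 3.75-fold higher ratio of Gfap to Vim after PEL. The 3 ratios were compared by exact two-sided permutation tests, in which p = 0.1 is the smallest possible, and Gfap over Vim gave p = 0.1 (0.15 after Benjamini-Hochberg adjustment over the 3 ratios).

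The log2 ratio of Gfap to Nes was 7.34 ± 0.64 after PEL and 5.78 ± 0.14 in controls (SD, n = 3 each), a difference of 1.56, with no overlap between the groups (exact permutation p = 0.1, adjusted p = 0.15). Within the PEL group this ratio was lowest in replicate 2, at 6.64, and highest in replicate 3, at 7.90, the reverse of the order of the CPM of both genes. The log2 ratio of Nes to Vim was -5.11 ± 0.73 after PEL and -5.46 ± 0.12 in controls (SD, n = 3 each). The difference of 0.35 was smaller than the spread of the PEL libraries, the groups overlapped, and the exact permutation test gave p = 0.6 (adjusted p = 0.6). The PEL values were -5.14, -4.38 and -5.83 in replicates 1, 2 and 3, so replicates 1 and 2 lay above and replicate 3 below all controls, which ran from -5.59 to -5.34. Without PEL replicate 2 the difference was -0.023.

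**Figure D4:**
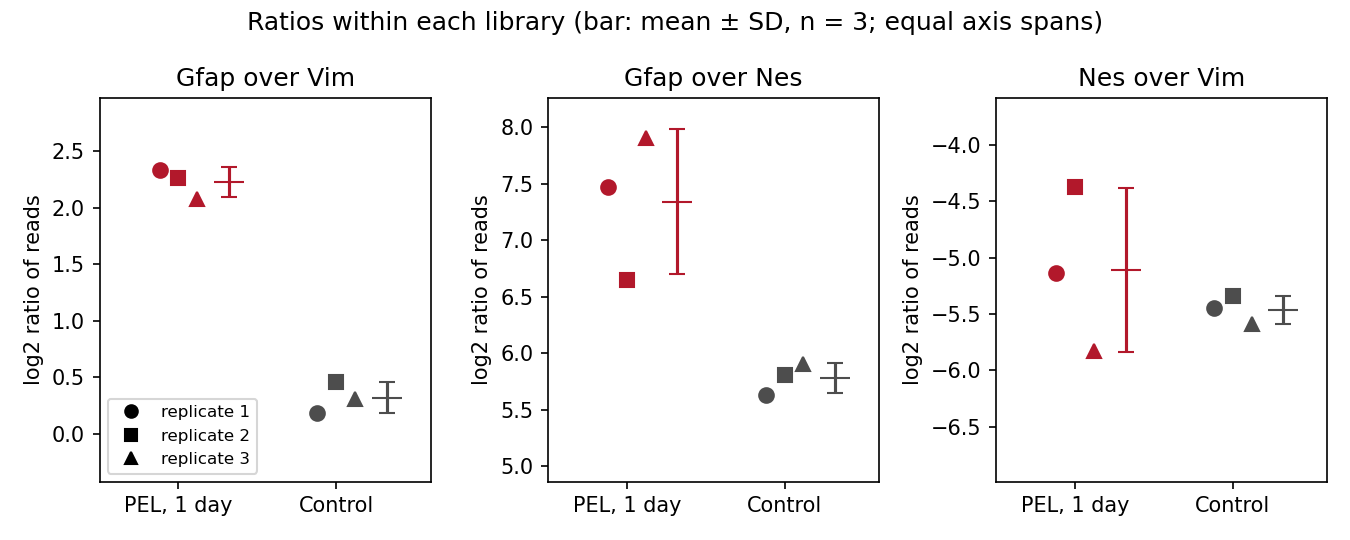
Log2 ratio of reads (vertical axes, of equal span) of Gfap over Vim, Gfap over Nes and Nes over Vim in each PEL and control library, with the marker shape giving the replicate number and the bar giving the mean ± SD. The Gfap over Vim ratio separates the groups by 1.91 with little spread, while the Nes over Vim ratio of the PEL libraries spans the control values.

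The gene whose pattern was most like that of each member was sought among the other 12994 rows of that level, by Pearson's correlation of log2(CPM + 1) over the 6 samples. The samples form 2 separate groups, so high values are common and serve as a description. A correlation of at least 0.95 was found with Gfap for 450 rows, with Vim for 344 and with Nes for 570. The row nearest to Gfap was ENSRNOG00000008115 (r = 0.999), which rose to 18.8 ± 2.76 CPM after PEL, against 5.20 ± 0.303 CPM in controls (SD, n = 3 each). Its change on the log2 scale was 1.85 ± 0.15 (SE; adjusted p = 0.00214, edgeR). The row nearest to Vim was ENSRNOG00000001149 (r = 0.999), at 53.5 ± 1.52 CPM after PEL and 44.6 ± 2.07 CPM in controls (SD, n = 3 each). Its log2 fold change of 0.26 did not pass the test (edgeR adjusted p = 0.0797). The row nearest to Nes (r = 0.999) had 48.2, 78.5 and 29.1 CPM in PEL replicates 1, 2 and 3, against 24.0, 20.6 and 22.5 CPM in control replicates 1, 2 and 3, and like Nes it missed the threshold (edgeR adjusted p = 0.0647). Of the rows correlated at 0.95 or more, 338 of 450 for Gfap, 237 of 344 for Vim and 153 of 570 for Nes were called higher. Among all 17125 tested rows, which include those with a mean under 5 CPM, 4.44% were called higher. The share among the 12994 rows searched is not given. Correlations and calls came from the same libraries, so these counts are a description and no test.

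**Figure D5:**
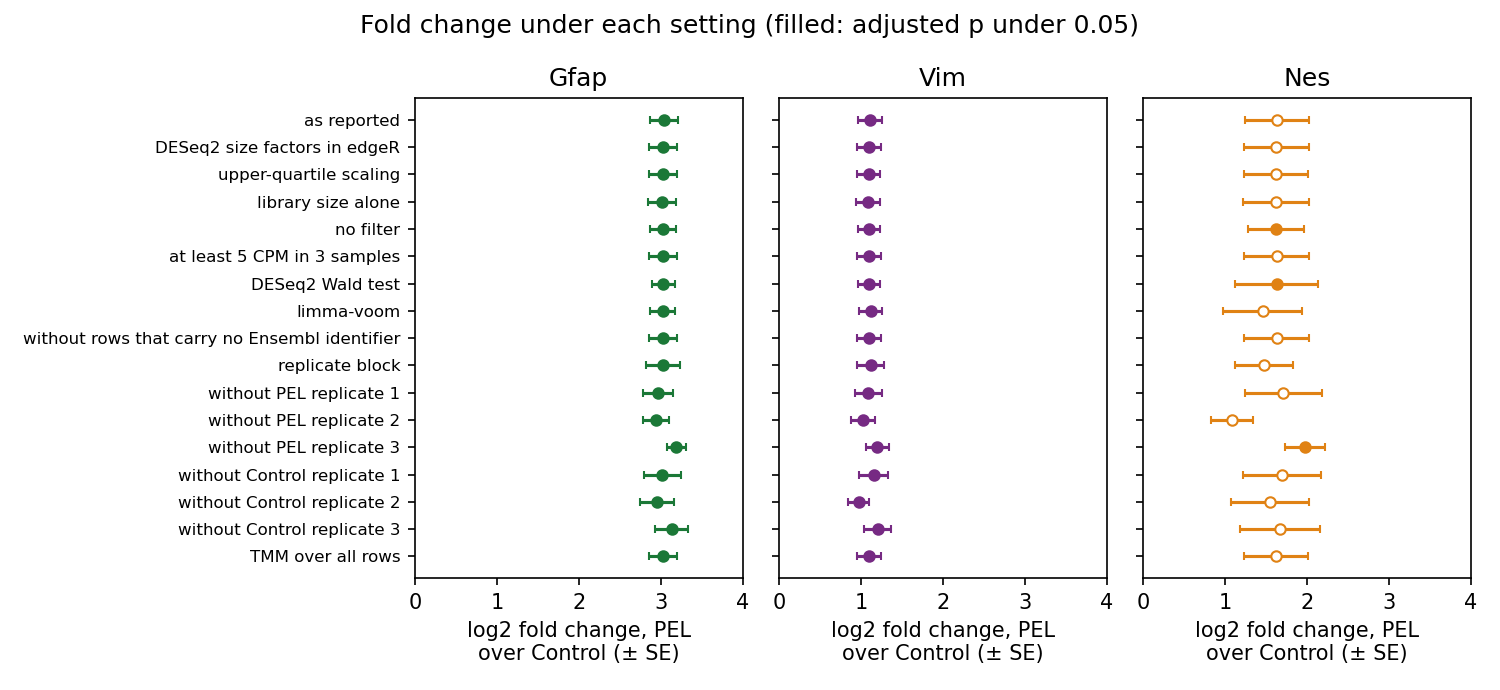
Log2 fold change of PEL over control ± SE (horizontal axes) for Gfap, Vim and Nes as reported and under 16 other settings (rows), filled where the adjusted p was under 0.05. Gfap and Vim are filled in every row, and Nes is filled in the rows with no filter, with DESeq2 and without PEL replicate 3.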

How the data were processed

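The authors deposited raw read counts per gene, whole numbers with no normalization, in 6 columns named like the sample titles. HISAT2 2.0.5, featureCounts 1.5.0-p3 and DESeq2 1.16.1 are named in the submitters' processing notes. Neither build, annotation nor strand setting is given in the sources used here. How reads over overlapping genes were counted is thus not known.

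Counts were tested with edgeR 4.0.16 in R 4.3.3: filterByExpr with minimum count 10, TMM over the rows kept, quasi-likelihood F test, 6 samples, group as the only term. Standard errors are the log2 fold change over the square root of F, and intervals are 95%. DESeq2 1.42.0 and limma 3.58.1 served as alternatives, with other scalings and filters, a replicate block and each sample left out. TMM over all 34510 rows was added after the data were seen. The edgeR, DESeq2 and limma-voom fits were also run on simulated counts, with a spread per row estimated from these data and equal in both groups. These counts thus left out the difference in spread between PEL and control libraries. Only recovery of the fold changes was required there, and no error rate was.

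Control libraries differed from each other by 4.50 to 7.83 chi-square units per degree of freedom, and PEL libraries by 15.7 to 24.1. No pair was therefore treated as 1 library. The edgeR fit used the same spread for both groups in each row. Nothing in the labels ties samples to separate animals, and p-values measure only the spread between these samples, which may be technical. Members and lists were chosen with earlier results of these data known. The text names the 3 members and, for each, the row most correlated with it, with at most 2 identifiers printed for rows that were higher and 2 for rows that were lower. Of 34510 identifiers, 0 matched the 47357 RefSeq genes of GRCr8, so the lists of other filament genes, filament partners and modifying enzymes, reactive astrocyte genes and cell type markers were not used here. Figures were drawn with matplotlib 3.10.9.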

Additional observations from a re-analysis of the deposited data

How the results depend on the processing

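Gfap and Vim kept their direction and an adjusted p under 0.05 in all 16 alternatives. When 1 sample was left out, log2 fold changes ran from 2.94 to 3.19 for Gfap, 0.97 to 1.20 for Vim and 1.08 to 1.98 for Nes. Leaving out a sample could not reverse these, since the groups do not overlap. Nes was called with no filter (1.63), with DESeq2 (1.63) and without PEL replicate 3 (1.98), and in none of the other 13. The cause was not tested. Ratio differences without 1 sample ran from 1.84 to 1.98 for Gfap over Vim, 1.28 to 1.91 for Gfap over Nes and -0.023 to 0.70 for Nes over Vim, which reversed to -0.023 without PEL replicate 2. Adding 0.5 reads reversed no ratio, which it could hardly do with at least 181 reads of each member in every library. The DESeq2 Wald test called 1636 rows, 1199 higher and 437 lower, against 930, 760 and 170 as reported. Without 1 sample the counts ran from 179 to 2107, 166 to 1468 higher and 12 to 639 lower. With a replicate block they were 547, 451 and 96, and Nes had a log2 fold change of 1.47 (edgeR adjusted p = 0.0835). Same-numbered samples did not deviate together (correlations 0.00417, -0.0824 and -0.0522), so the numbers were not taken as pairs.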
